A study of Mus musculus with 20 samples.

Results

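The genes described here encode the mitochondrial SLC25 carriers and the uncoupling proteins. They were chosen by name, with the exceptions listed under processing: protein-coding genes of the count table whose symbol starts with Slc25a, without Slc25a15 and Slc25a20, together with Ucp1, Ucp2 and Ucp3. That gave 47 of 56748 genes, of which 41 passed the filter on low counts and were tested. RNA sequencing was done on livers of mice fasted for 24 h, in 20 libraries from 5 groups of 4. The groups were Cpt2PparaDKO, which lacked Cpt2 and, per the series' design text, Ppara (the sample labels write PPAR), TKO, which lacked Cpt1a, Cpt1b and Cpt2, Cpt2KO, which lacked Cpt2, Cpt1DKO, which lacked Cpt1a and Cpt1b, and Control. Deletions are labelled liver-specific, and Control mice, described as littermates, carried floxed alleles of Cpt1a, Cpt1b and Cpt2. The labels give no Cre driver, age or sex, and do not say whether each library is a separate animal, so p-values measure library-to-library spread that could include technical variation. The 4 comparisons of a mutant group with Control share the same Control libraries. Where groups came from different mouse lines, a difference of line cannot be told apart from one of genotype.

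SLC25 carriers sit in the mitochondrial inner membrane, with a few exceptions in the outer membrane or in peroxisomes, and exchange nucleotides, phosphate, carboxylates, amino acids, cofactors and metal ions with the cytosol. The uncoupling proteins belong to the same family. Ucp1 lets protons leak back into the matrix in brown fat, Ucp3 is known mainly from muscle and brown fat, and Ucp2 is widespread and abundant in macrophages. In the fasting liver these carriers serve gluconeogenesis, urea synthesis and ketogenesis, while CPT1 and CPT2 pass long-chain fatty acids into the matrix as acylcarnitines, and Ppara encodes PPARalpha, a fatty acid sensor in the nucleus that switches on genes of the fasting response.

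Total counts lay between 14129595 and 20273303 in 19 libraries and reached 36452673 in Cpt2PparaDKO replicate 1. Levels are given in CPM, counts scaled to a common effective library size. Of the targeted genes, Cpt2, Cpt1a and Ppara were lower where the labels say they were deleted. Cpt2 averaged 33.9 ± 4.86 CPM in Cpt2PparaDKO, 103 ± 11.7 in TKO, 131 ± 23.6 in Cpt2KO and 249 ± 26.2 in Control (SD, n = 4 each). Cpt1a averaged 137 ± 12.7 CPM in TKO, 155 ± 12.2 in Cpt1DKO and 1037 ± 76.6 in Control, and Ppara 73.1 ± 13 CPM in Cpt2PparaDKO and 233 ± 46 in Control. Cpt1b, the muscle form, averaged 2.8 ± 0.308 CPM in TKO, 3.91 ± 1.74 in Cpt2KO, 0.88 ± 0.216 in Cpt1DKO and 0.543 ± 0.215 in Control. Every TKO library lay above every Control library, so this low gene was not lower than in Control where it was deleted. The TKO libraries lay within the Cpt2KO range of 1.5 to 5.27 CPM. Cpt2PparaDKO replicate 4 and Cpt2KO replicate 3 had the Xist level of a female (at least 100 CPM), the other 18 libraries that of a male. Cpt2PparaDKO replicate 4 also stood apart from the other 3 libraries of its group in several members. Summed over the 6 of 7 listed hepatocyte markers that the table holds (Alb, Ttr, Apoa1, Apob, Fgb and Serpina1e), levels ran over 34552 to 43370.0 CPM in Cpt2PparaDKO, 37186 to 64621 in TKO, 42637 to 66436 in Cpt2KO, 70036 to 79479 in Cpt1DKO and 84463 to 103808 in Control, with none of the 6 at 0 in any group. Of these 6, 4 were lower in Cpt2PparaDKO, 3 in TKO, 4 in Cpt2KO and 0 in Cpt1DKO than in Control at an adjusted p under 0.05. Of all tested genes, 17.6%, 14.4%, 17.2% and 3.1% were lower in those groups, in that order. Alb, at a mean of 62768 CPM in Control, made up most of the sum there. Apoa1 averaged 4823 ± 364 CPM in Cpt2PparaDKO, 7416 ± 682 in TKO and 10167 ± 2910 in Cpt2KO. It averaged 11904 ± 897 CPM in Cpt1DKO and 8856 ± 690 in Control. The part of these marker changes in the members' falls was not tested, and fewer cells of a type and less RNA per cell cannot be told apart in these bulk samples.

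To compare genes with each other, the deposited FPKM values, which are scaled by transcript length, were used. Slc25a5, one of the carriers that exchange ADP for ATP, Slc25a47, a liver-enriched member whose substrate is debated, and Slc25a39, which takes up glutathione, were the 3 highest members in every group. Slc25a47 averaged 193 ± 59.2 FPKM in Cpt2PparaDKO, 527 ± 100.2 in TKO, 587 ± 169 in Cpt2KO, 486 ± 85.8 in Cpt1DKO and 268 ± 33.9 in Control (SD, n = 4 each). For Slc25a5 the mean was 265 ± 16.8 FPKM in Cpt2PparaDKO, 335 ± 28.5 in TKO, 348 ± 26.2 in Cpt2KO, 285 ± 34.4 in Cpt1DKO and 303 ± 11.3 in Control. Slc25a47 thus stood first by its mean in TKO, Cpt2KO and Cpt1DKO, and Slc25a5 stood first in Cpt2PparaDKO and Control. Together with Slc25a39 they held 54.5 ± 2.14% of the summed member FPKM in Cpt2PparaDKO, 60.2 ± 1.21% in TKO, 61.4 ± 5.1% in Cpt2KO, 54 ± 2.34% in Cpt1DKO and 47.3 ± 2.17% in Control (SD, n = 4 each). Summed over all 47 members, the level was 3970.1 ± 483 CPM in Cpt2PparaDKO, 5855 ± 611 in TKO, 6269 ± 669.6 in Cpt2KO, 6467 ± 288 in Cpt1DKO and 5629 ± 234 in Control. The Cpt2PparaDKO libraries, at 3251 to 4259 CPM, all lay below those of every other group, the lowest of which was 5339 CPM in TKO.

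**Figure D1:**
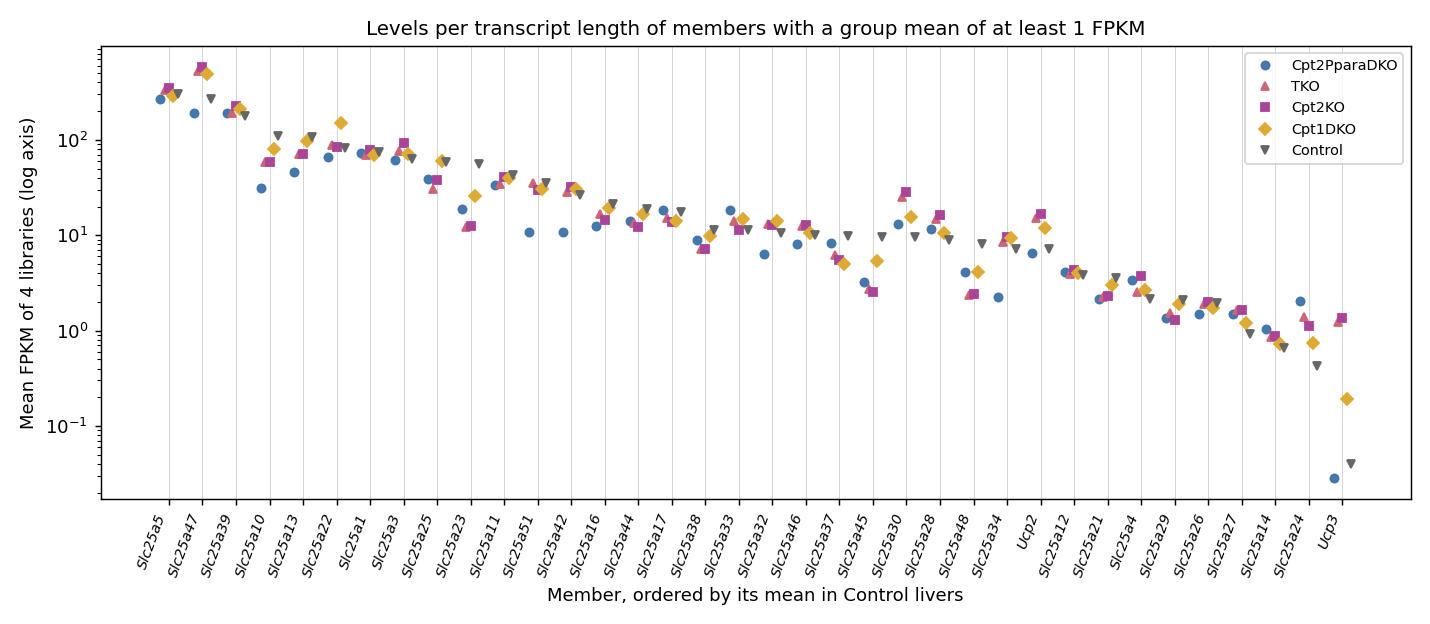
Mean FPKM over 4 libraries (log axis) in each of the 5 groups for the 36 members that reached 1 FPKM in at least 1 group, ordered by their mean in Control. Slc25a5, Slc25a47 and Slc25a39 lead in every group, and Ucp3, the lowest of these members in Control, spreads over the groups: 0.0282 FPKM in Cpt2PparaDKO, 1.23 in TKO, 1.35 in Cpt2KO and 0.192 in Cpt1DKO, against 0.0400 in Control.

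The 6 members below the filter were Ucp1, Slc25a41, Slc25a54, Slc25a31, Slc25a2 and Slc25a43. Ucp1, the brown fat uncoupling protein, had 0 counts in all 20 libraries, as had Slc25a41, an ATP-Mg/phosphate carrier, and Slc25a54. A count of 0 allows up to 3 counts, or 0.0705 to 0.239 CPM depending on the library, and covers counting error only. Over all libraries, Slc25a31, the adenine nucleotide carrier of germ cells, had 33 counts, Slc25a2, an ornithine carrier, had 42 and Slc25a43 had 46.

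In edgeR's quasi-likelihood test, fitted to all 15669 genes that passed the filter, a gene was called at a Benjamini-Hochberg adjusted p under 0.05. Each log2 fold change sets the first-named group over the second, and a call is said to be lost where an alternative gave an adjusted p of 0.05 or more (losses with the replicate number as a block stand with the processing alternatives). In Cpt2PparaDKO against Control, 5 members were higher and 15 lower, 48.8% of those tested, beside 32.5% of all genes (14.9% higher and 17.6% lower). In TKO 9 were higher and 11 lower, again 48.8%, beside 27.4% of all genes (12.9% higher and 14.4% lower). In Cpt2KO 12 were higher and 12 lower, 58.5%, beside 33.4% of all genes (16.2% higher and 17.2% lower). In Cpt1DKO 4 were higher and 3 lower, 17.1%, beside 5.55% of all genes (2.44% higher and 3.1% lower). The median log2 fold change of the tested members was −0.35 in Cpt2PparaDKO, 0.0214 in TKO, 0.002 in Cpt2KO and 0.0158 in Cpt1DKO, and that of all tested genes lay between −0.0085 and 0.0002. The carriers therefore changed in both directions, with more falls than rises in Cpt2PparaDKO. Without both female-pattern libraries the Cpt2PparaDKO count was 13, the same number as without its replicate 4 alone, while 28% and 26.4% of all genes were called in those fits. The 7 calls in Cpt1DKO, like the share of all genes called there, depended on single libraries. The count was 2, 1 and 4 without Cpt1DKO replicates 1, 2 and 4, and 4, 3, 2 and 3 without Control replicates 1 to 4 in turn. In the same fits the share of all genes was 1.79%, 1.93% and 4.32% without those Cpt1DKO libraries, and 4.26%, 2.95%, 2.93% and 3.01% without those Control libraries. Over the 4 comparisons with Control, 31 members were called at least once, and 10 were called in none: Slc25a5, Slc25a25, Slc25a36, Slc25a14, Slc25a1, Slc25a11, Slc25a12, Slc25a17, Slc25a40 and Slc25a53. How many of all genes were called at least once was not counted, so the 31 cannot be called many or few.

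**Figure D2:**
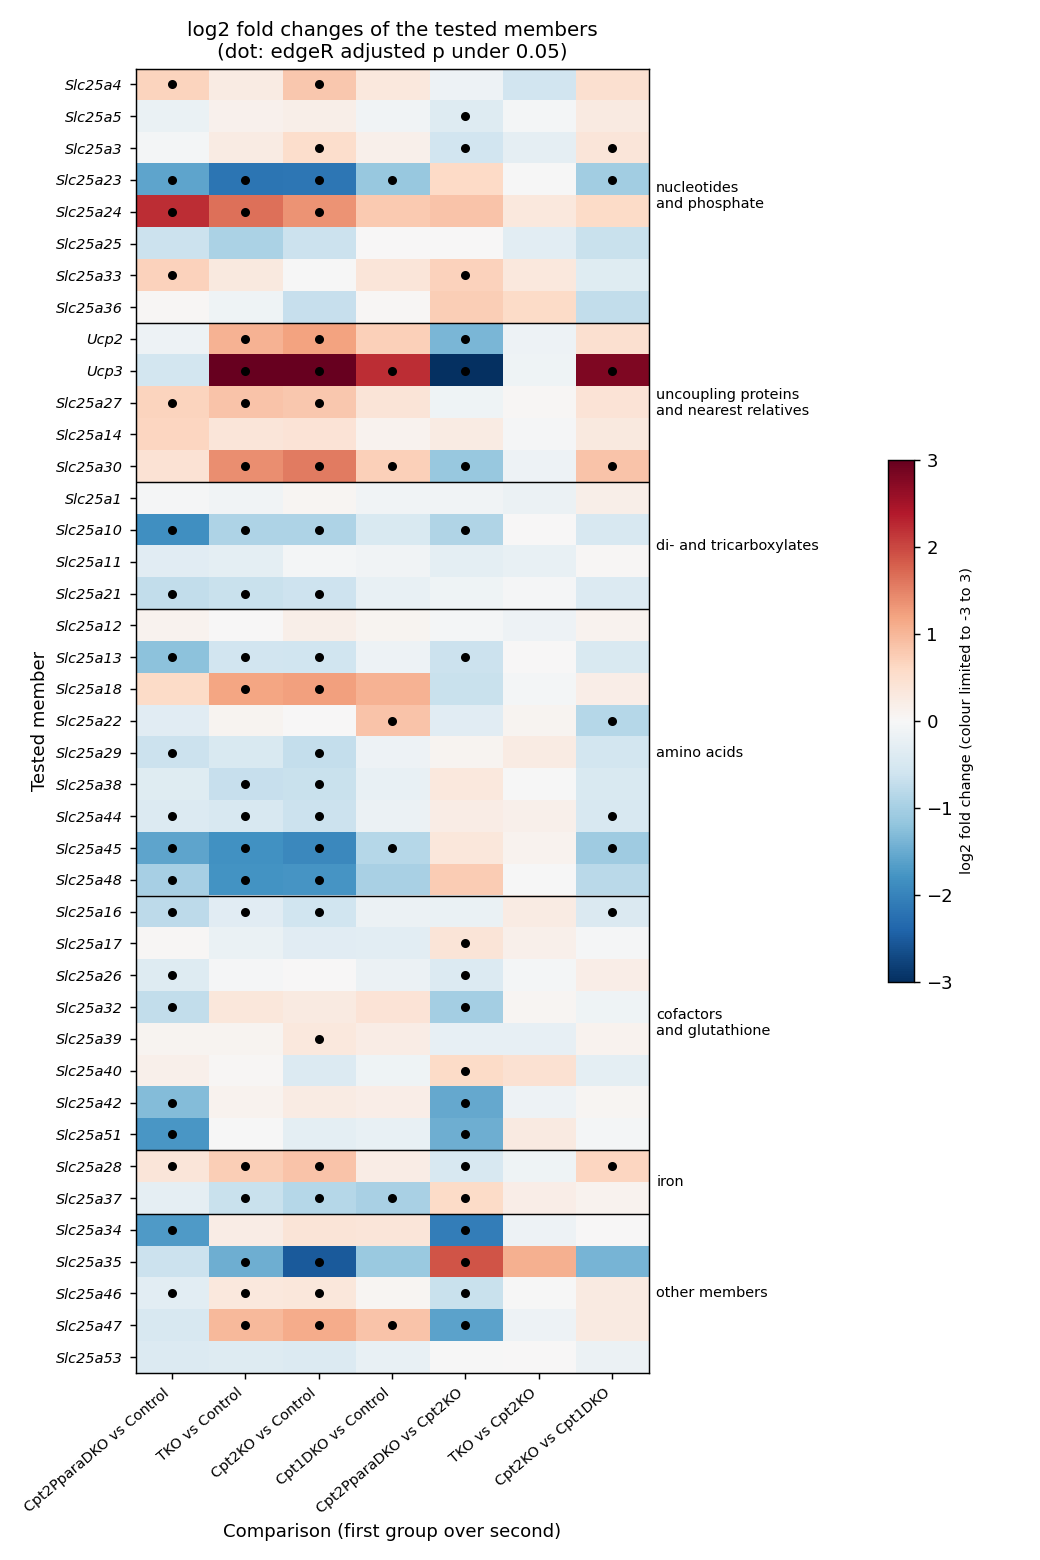
Log2 fold changes (colour, limited to −3 to 3) of the 41 tested members, grouped by role, in 7 comparisons, each with its first group over its second. A dot marks an adjusted p under 0.05. Ucp3 is the deepest red in TKO and Cpt2KO against Control and the deepest blue in Cpt2PparaDKO against Cpt2KO, and the column for TKO against Cpt2KO holds no dot.

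Among the 5 tested uncoupling proteins and their nearest relatives, 4 rose in TKO and 4 in Cpt2KO, and none fell in any mutant group against Control. Of all genes, 12.9% rose in TKO and 16.2% in Cpt2KO. Ucp3 made the largest change of any member. It had 1, 4, 0 and 4 counts in the Cpt2PparaDKO libraries, 70, 60, 91 and 68 in TKO and 74, 51, 111 and 57 in Cpt2KO. The counts were 6, 6, 13 and 11 in Cpt1DKO and 0, 1, 3 and 4 in Control. Every TKO and Cpt2KO library lay above every library of the other 3 groups, the Cpt1DKO libraries lay between, and Cpt2PparaDKO overlapped Control. In CPM this was 0.0235, 0.178, 0 and 0.155 in Cpt2PparaDKO, 4.24, 4.04, 4.24 and 3.11 in TKO and 4.99, 2.71, 6.02 and 3.28 in Cpt2KO. The values were 0.397, 0.392, 1.04 and 0.619 CPM in Cpt1DKO and 0, 0.0674, 0.208 and 0.234 CPM in Control. Ucp3 rose in Cpt2KO (log2 fold change 5.02, SE 0.56, adjusted p = 1.5e-06) and in TKO (log2 fold change 4.9, SE 0.56, adjusted p = 3.47e-06), and both folds rest on few reads in Control. It was also higher in Cpt1DKO (log2 fold change 2.21, SE 0.65, adjusted p = 0.0492), a call lost without Cpt1DKO replicate 1, 2, 3 or 4 or without Control replicate 1, 2, 3 or 4 (adjusted p = 0.055 to 0.123). Ucp3 passed the filter on low counts through the TKO and Cpt2KO libraries. In a fit of only Cpt1DKO and Control it fell below that filter and was not tested. Ucp3 was lower in Cpt2PparaDKO than in Cpt2KO (log2 fold change −5.57, SE 0.55, adjusted p = 1.98e-07) and higher in Cpt2KO than in Cpt1DKO (log2 fold change 2.81, SE 0.46, adjusted p = 0.000432).

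Because Ucp3 is known mainly from muscle and brown fat, markers of both were read beside it. Summed over 5 muscle markers (Acta1, Ckm, Myh7, Myl1 and Tnnt3), no library exceeded 0.27 CPM, and all 5 fell below the filter on low counts. Of 5 fat markers, Ucp1's companions in brown fat and genes of white fat, Lep had 0 counts in every group, Dio2 had 0 in all but Cpt2KO, and Adipoq did not exceed 0.349 CPM in any library. The other two are also made in liver: Elovl3 averaged 26.6 ± 17.7 CPM in Cpt2PparaDKO, 71.0 ± 16.7 in TKO, 35.6 ± 22.8 in Cpt2KO, 47.4 ± 12.4 in Cpt1DKO and 79.9 ± 18.0 in Control, and Cidea averaged 0.0582 ± 0.116 CPM in Cpt2PparaDKO, 2.53 ± 1.85 in TKO, 0.551 ± 0.155 in Cpt2KO, 0.382 ± 0.366 in Cpt1DKO and 0.113 ± 0.137 in Control. The sum of the 5 ran over 1.51 to 40.8 CPM in Cpt2PparaDKO, 58.5 to 96.6 in TKO, 9.11 to 59.3 in Cpt2KO, 37.3 to 65.9 in Cpt1DKO and 55.1 to 96 in Control, and Cidea in TKO was the 1 call against Control. On the opposite strand, overlapping Ucp3, lies the long non-coding gene Gm10603, and whether the authors counted by strand is not stated. Gm10603 averaged 0.666 ± 0.102 CPM in Cpt2PparaDKO, 3.84 ± 0.462 in TKO, 6.11 ± 1.48 in Cpt2KO, 1.38 ± 0.123 in Cpt1DKO and 1.1 ± 0.451 in Control (SD, n = 4 each). It was higher in Cpt2KO than in Control (log2 fold change 2.48, SE 0.26, adjusted p = 7.96e-07) and lower in Cpt2PparaDKO than in Cpt2KO (log2 fold change −3.18, SE 0.27, adjusted p = 1.77e-08). If reads were counted without regard to strand, those of Ucp3 and Gm10603 cannot be told apart where the genes overlap. The same holds for Ucp2 and Dnajb13, Slc25a23 and Crb3, and Slc25a26 and Lrig1, which also overlap on opposite strands.

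Ucp2, which lies beside Ucp3 on chromosome 7 and is made in many cell types, had 36.7, 41.3, 44.7 and 60.4 CPM in Cpt2PparaDKO, 72.5, 124, 110.4 and 117 in TKO and 119, 95, 172 and 84.1 in Cpt2KO. The values were 78.5, 88.2, 57.5 and 110.0 CPM in Cpt1DKO and 61, 47.4, 44.2 and 51.8 in Control. All TKO and Cpt2KO libraries lay above all Control libraries, and Cpt2PparaDKO and Cpt1DKO overlapped Control. Ucp2 rose in Cpt2KO (log2 fold change 1.2, SE 0.23, adjusted p = 0.000444) and TKO (log2 fold change 1.05, SE 0.23, adjusted p = 0.00178). Cpt2PparaDKO was lower than Cpt2KO (log2 fold change −1.36, SE 0.23, adjusted p = 0.000205), with no overlap between their libraries. Ucp2 is also a macrophage gene, and 6 markers of lipid-associated macrophages (Gpnmb, Trem2, Cd9, Spp1, Lgals3 and Itgax) summed to 112 to 125 CPM in Cpt2PparaDKO, 65.6 to 77.7 in TKO, 69.4 to 119 in Cpt2KO, 37.6 to 47 in Cpt1DKO and 36.8 to 43.6 in Control, with none at 0 in any group. Of these 6, 5 rose and 0 fell in Cpt2PparaDKO, and 3 rose and 1 fell in TKO. In Cpt2KO 3 rose and 1 fell, and in Cpt1DKO 2 rose and 0 fell. Of all genes, 14.9% rose and 17.6% fell in Cpt2PparaDKO, and 12.9% rose and 14.4% fell in TKO. The shares were 16.2% and 17.2% in Cpt2KO and 2.44% and 3.1% in Cpt1DKO. Within the list, Gpnmb averaged 23.7 CPM in TKO and 37.9 in Cpt2KO, against 0.249 in Control. Spp1 averaged 11.7 CPM in TKO and 8.59 in Cpt2KO, against 23.8 in Control. A wider list of 12 Kupffer cell and macrophage markers had 1 rise and 0 falls in Cpt2PparaDKO and in Cpt2KO against Control. It had 1 rise and 1 fall in TKO and 0 calls in Cpt1DKO, beside the same shares of all genes. Its sum ran over 589 to 709 CPM in Cpt2PparaDKO, 219 to 414 in TKO and 277 to 706 in Cpt2KO. In Cpt1DKO it was 323 to 429 CPM and in Control 321 to 637. The part of either list in the level of Ucp2 was not tested.

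Slc25a30, a relative of the uncoupling proteins also called KMCP1, had 74.1, 65.8, 40.7 and 59.1 CPM in Cpt2PparaDKO, 118, 133, 117 and 101 in TKO and 118, 123, 165 and 118 in Cpt2KO. In Cpt1DKO it had 73.5, 78.4, 60.9 and 77 CPM and in Control 43.2, 48.3, 30.7 and 55.6 CPM. TKO, Cpt2KO and Cpt1DKO libraries all lay above Control, and Cpt2PparaDKO overlapped it. It rose in Cpt2KO (log2 fold change 1.56, SE 0.18, adjusted p = 2.19e-06), in TKO (log2 fold change 1.4, SE 0.18, adjusted p = 1.19e-05) and in Cpt1DKO (log2 fold change 0.7, SE 0.18, adjusted p = 0.0235), the last call being lost without Cpt1DKO replicate 1, 2 or 4 or without Control replicate 1 or 3 (adjusted p = 0.0537 to 0.0807). Cpt2PparaDKO was lower than Cpt2KO (log2 fold change −1.13, SE 0.18, adjusted p = 8.4e-05). Slc25a27, or UCP4, known from the brain, rose, with log2 fold changes of 0.68 in Cpt2PparaDKO, 0.85 in TKO and 0.81 in Cpt2KO. Its call in Cpt2PparaDKO was lost without Cpt2PparaDKO replicate 4, without Control replicate 2 or 4 or without both female-pattern libraries (adjusted p = 0.0573 to 0.0611). Slc25a14, or UCP5, averaged 2.49 ± 0.359 CPM in Cpt2PparaDKO, 2.05 ± 0.568 in TKO, 2.09 ± 0.648 in Cpt2KO, 1.72 ± 0.249 in Cpt1DKO and 1.59 ± 0.366 in Control and was called in no comparison.

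**Figure D3:**
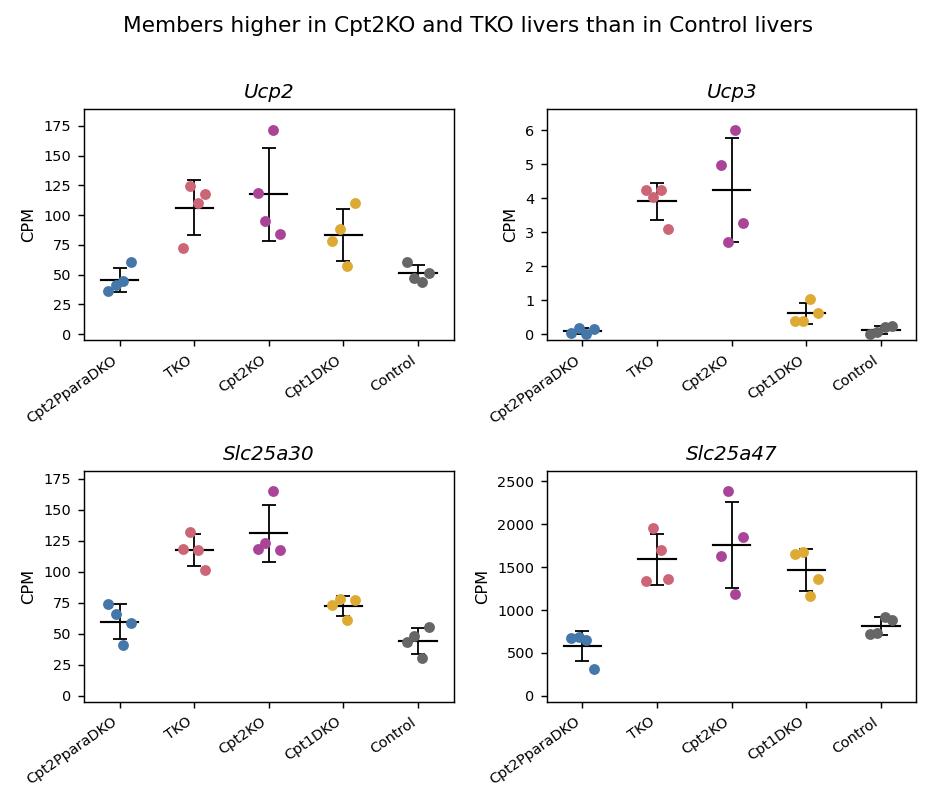
CPM of Ucp2, Ucp3, Slc25a30 and Slc25a47 in every library (points), with the mean (line) and SD (bars) of the 4 libraries of each group. TKO and Cpt2KO libraries lie above all Control libraries in each panel, and Cpt2PparaDKO libraries lie below all Cpt2KO libraries.

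Upstream sequence is shown for the 5 members with the largest falls in Cpt2PparaDKO against Cpt2KO among those with a window in the table, a choice made after their values were seen, because PPARalpha binds direct repeats built on the letters AGGTCA. The 250 bases before the transcript start come from RefSeq on GRCm38.p6, an older build, and are shown 5′ to 3′ on the gene's strand. The genes lie at chr7:100122197-100135639 (Ucp3), chr7:100142544-100151227 (Ucp2), chr12:108801972-108822741 (Slc25a47), chr4:141346135-141351132 (Slc25a34) and chr8:70636990-70664955 (Slc25a42) on GRCm39, the build of the counts. The windows cover Ucp3 at chr7:100472741-100472990 on the plus strand, Ucp2 at chr7:100493108-100493357 on the plus strand, Slc25a47 at chr12:108850879-108851128 on the plus strand, Slc25a34 at chr4:141623835-141624084 on the minus strand and Slc25a42 at chr8:70212282-70212531 on the minus strand. Slc25a34 and Slc25a42 are described with the other carriers. Capitals mark AGGTCA on either strand, which reads TGACCT where it lies on the opposite one.
Ucp3: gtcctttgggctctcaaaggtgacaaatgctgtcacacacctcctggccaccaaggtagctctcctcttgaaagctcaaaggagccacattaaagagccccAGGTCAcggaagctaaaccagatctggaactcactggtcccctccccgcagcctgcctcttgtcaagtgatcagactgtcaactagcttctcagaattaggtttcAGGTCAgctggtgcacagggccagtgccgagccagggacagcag
Ucp2: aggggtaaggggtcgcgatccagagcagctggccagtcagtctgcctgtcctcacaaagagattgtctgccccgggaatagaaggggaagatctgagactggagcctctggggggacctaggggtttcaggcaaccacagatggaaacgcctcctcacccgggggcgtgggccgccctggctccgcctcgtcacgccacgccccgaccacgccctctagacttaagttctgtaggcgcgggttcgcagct
Slc25a47: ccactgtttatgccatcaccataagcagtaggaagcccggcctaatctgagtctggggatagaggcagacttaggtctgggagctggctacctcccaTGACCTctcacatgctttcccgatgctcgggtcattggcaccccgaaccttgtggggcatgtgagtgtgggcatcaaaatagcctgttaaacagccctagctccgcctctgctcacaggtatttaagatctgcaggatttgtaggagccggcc
Slc25a34: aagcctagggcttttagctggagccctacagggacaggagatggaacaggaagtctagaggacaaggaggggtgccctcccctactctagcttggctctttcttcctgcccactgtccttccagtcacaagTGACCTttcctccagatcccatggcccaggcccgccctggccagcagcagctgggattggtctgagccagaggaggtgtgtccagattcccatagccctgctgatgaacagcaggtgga
Slc25a42: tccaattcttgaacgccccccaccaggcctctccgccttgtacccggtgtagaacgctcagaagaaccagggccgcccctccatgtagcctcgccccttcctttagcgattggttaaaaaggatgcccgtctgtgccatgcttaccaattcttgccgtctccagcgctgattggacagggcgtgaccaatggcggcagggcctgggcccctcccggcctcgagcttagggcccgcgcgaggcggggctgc
The window of Ucp3 held 2 copies of AGGTCA, those of Slc25a47 and Slc25a34 held 1 each, and those of Ucp2 and Slc25a42 held 0. Among the other members lower in Cpt2PparaDKO than in Cpt2KO, the windows of Slc25a30, Slc25a10, Slc25a13, Slc25a3, Slc25a28 and Slc25a5 held 0. Windows were found for 37 of the 47 members, 46 windows in all because some genes have several, and 6 motifs were searched on both strands. AGGTCA was in 6 of the 46 member windows (Ucp1, Ucp3, Slc25a34, Slc25a39, Slc25a45 and Slc25a47), or 13%, and in 14% of all 32851 windows. The direct repeat AGGTCANAGGTCA was in 0 member windows and 0.0335% of all windows, and its relaxed form AGGNCANAGGNCA in 0 and 0.338%. TGATGCAA, the amino acid response element, was in 0 member windows and 0.791% of all windows. TGACGTCA, the cAMP response element, was in those of Slc25a25 and Slc25a36, 4.35% of member windows and 1.55% of all. Its short form TGACGT, which lies inside it, was in those of Slc25a25, Slc25a36, Slc25a3 and Slc25a33, 8.7% of member windows and 6.47% of all. These matches describe letters in a window and carry no information on binding.

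Of the 8 tested carriers of nucleotides and phosphate, 3 rose and 1 fell in Cpt2PparaDKO, and 1 rose and 1 fell in TKO. In Cpt2KO 3 rose and 1 fell, and in Cpt1DKO 0 rose and 1 fell. The share of all genes that rose was 14.9% in Cpt2PparaDKO, 12.9% in TKO, 16.2% in Cpt2KO and 2.44% in Cpt1DKO. The share that fell was 17.6%, 14.4%, 17.2% and 3.1%, in that order. The same member fell in all 4 mutant groups, and how many of all genes did so was not counted. Slc25a23, an ATP-Mg/phosphate carrier regulated by calcium that sets the adenine nucleotide pool of the matrix, had 115, 116, 119 and 54.7 CPM in Cpt2PparaDKO, 55.9, 65, 69.3 and 74.3 in TKO and 101, 60.1, 68.5 and 38.9 in Cpt2KO. It had 103, 85.8, 205 and 159.9 CPM in Cpt1DKO and 298, 309.9, 309.8 and 296 in Control. No mutant library reached the lowest Control library, and within Cpt1DKO replicates 3 and 4 lay above replicates 1 and 2. The log2 fold change against Control was −1.59, SE 0.29, adjusted p = 0.000372 in Cpt2PparaDKO. It was −2.2, SE 0.29, adjusted p = 2.73e-05 in TKO and −2.18, SE 0.29, adjusted p = 1.78e-05 in Cpt2KO. In Cpt1DKO it was −1.13, SE 0.28, adjusted p = 0.0245, a call lost without Cpt1DKO replicate 1 or 2, without Control replicate 2, 3 or 4 or with no filter on low counts (adjusted p = 0.0525 to 0.0966). Slc25a23 was lower in Cpt2KO than in Cpt1DKO (log2 fold change −1.05, SE 0.28, adjusted p = 0.0198), which was lost without Cpt1DKO replicate 3 or 4, without Cpt2KO replicate 2 or 4, with no filter on low counts or in a fit of only the groups compared (adjusted p = 0.0574 to 0.086).

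Slc25a24, a sister carrier with the same substrates, went the other way. It had 6.39, 5.74, 4.39 and 11.5 CPM in Cpt2PparaDKO, 8.17, 3.37, 3.91 and 3.75 in TKO and 2.22, 4.15, 2.17 and 6.85 in Cpt2KO. The values were 3.11, 3.66, 1.67 and 1.91 CPM in Cpt1DKO and 2.49, 1.89, 0.693 and 0.935 in Control. Cpt2PparaDKO and TKO libraries all exceeded Control, whereas Cpt2KO and Cpt1DKO overlapped it. It rose in Cpt2PparaDKO (log2 fold change 2.21, SE 0.45, adjusted p = 0.000977), in TKO (log2 fold change 1.66, SE 0.46, adjusted p = 0.0101) and in Cpt2KO (log2 fold change 1.35, SE 0.46, adjusted p = 0.0285), the last being lost without Cpt2KO replicate 2 or 4, without Control replicate 3 or 4 or with no filter on low counts (adjusted p = 0.0605 to 0.138). At these low levels the spread within a group was wide. The third sister, Slc25a25, was more abundant than either, at 304 ± 148 CPM in Cpt2PparaDKO, 244 ± 31.8 in TKO, 302 ± 152 in Cpt2KO, 478 ± 98.2 in Cpt1DKO and 473 ± 161 in Control, and was called in no comparison.

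Slc25a5 and Slc25a4, the adenine nucleotide translocases, swap matrix ATP for cytosolic ADP. They are close in sequence, and how the authors' counting treated reads shared between them, or with the pseudogene Slc25a5-ps at a mean of 0.225 CPM, is not given. Slc25a5 had 412, 426, 446 and 476 CPM in Cpt2PparaDKO, 573, 611, 530.3 and 512 in TKO and 522, 566, 592 and 622 in Cpt2KO. The values were 429, 423, 554 and 491 CPM in Cpt1DKO and 493, 514, 530.2 and 491 in Control. Only the Cpt2PparaDKO libraries all lay below Control, and no comparison with Control was called. Slc25a5 was lower in Cpt2PparaDKO than in Cpt2KO (log2 fold change −0.39, SE 0.11, adjusted p = 0.0169), which was lost with no filter on low counts or in a fit of only the groups compared (adjusted p = 0.0618 to 0.108). Slc25a4, the form of heart and muscle, had 5.36, 7.04, 9.29 and 10.5 CPM in Cpt2PparaDKO, 5.45, 5.93, 6.43 and 6.17 in TKO and 6.13, 8.04, 13.9 and 7.43 in Cpt2KO. It had 6.95, 6.92, 5.26 and 6.36 CPM in Cpt1DKO and 4.75, 6.41, 3.39 and 5.79 in Control. All groups overlapped Control. It was called higher in Cpt2PparaDKO (log2 fold change 0.66, SE 0.25, adjusted p = 0.044) and in Cpt2KO (log2 fold change 0.81, SE 0.25, adjusted p = 0.0151). The first call was lost without Cpt2PparaDKO replicate 3 or 4, without Control replicate 1 or 3, with sex as a term, without both female-pattern libraries or in a fit of only the groups compared (adjusted p = 0.0641 to 0.132), and the second without Cpt2KO replicate 3, without Control replicate 3 or without both female-pattern libraries (adjusted p = 0.051 to 0.0859).

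Slc25a3, the phosphate carrier that feeds ATP synthase, had 335, 343, 347 and 359.6 CPM in Cpt2PparaDKO, 433, 446, 416 and 417 in TKO and 402, 618, 503 and 544 in Cpt2KO. The values were 416, 396, 398 and 392 CPM in Cpt1DKO and 343, 363, 374 and 358 in Control. TKO, Cpt2KO and Cpt1DKO libraries lay above Control and Cpt2PparaDKO overlapped it. The rise passed the test in Cpt2KO (log2 fold change 0.52, SE 0.11, adjusted p = 0.00128), with 0.25, SE 0.11, adjusted p = 0.108 in TKO. Cpt2PparaDKO was lower than Cpt2KO (log2 fold change −0.58, SE 0.11, adjusted p = 0.000815). Cpt2KO was higher than Cpt1DKO (log2 fold change 0.37, SE 0.11, adjusted p = 0.0351), a call lost without Cpt1DKO replicate 1, 2, 3 or 4, without Cpt2KO replicate 2 or 4, with no filter on low counts or in a fit of only the groups compared (adjusted p = 0.0633 to 0.139). Slc25a33, a pyrimidine nucleotide carrier, was higher in Cpt2PparaDKO than in Control (log2 fold change 0.68, SE 0.16, adjusted p = 0.00326) and than in Cpt2KO (log2 fold change 0.69, SE 0.16, adjusted p = 0.00403). Its relative Slc25a36 averaged 4.79 ± 0.267 CPM in Cpt2PparaDKO, 4.26 ± 0.73 in TKO, 2.85 ± 1.04 in Cpt2KO, 4.76 ± 1.74 in Cpt1DKO and 4.66 ± 1.44 in Control and was called in no comparison.

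Of the 4 carriers of di- and tricarboxylates, 2 fell in Cpt2PparaDKO, TKO and Cpt2KO and none rose in any group. Of all genes, 17.6% fell in Cpt2PparaDKO, 14.4% in TKO and 17.2% in Cpt2KO. Slc25a10, the dicarboxylate carrier that exchanges malate and succinate for phosphate, had 127, 130.5, 117 and 57.6 CPM in Cpt2PparaDKO, 173, 222, 220.2 and 196 in TKO and 222, 202, 238 and 146 in Cpt2KO. The values were 227, 156, 407 and 337 CPM in Cpt1DKO and 359.8, 422, 341 and 416 in Control. Libraries of the first 3 groups all lay below Control, and Cpt2PparaDKO also lay below Cpt2KO. The fall was largest in Cpt2PparaDKO (log2 fold change −1.83, SE 0.26, adjusted p = 3.55e-05), beside −0.92, SE 0.26, adjusted p = 0.0105 in TKO and −0.93, SE 0.26, adjusted p = 0.00803 in Cpt2KO. Between Cpt2PparaDKO and Cpt2KO the difference was −0.9, SE 0.26, adjusted p = 0.0136. Slc25a10 differed by −0.59, and the call was lost, without both female-pattern libraries (adjusted p = 0.0768). Slc25a21, the oxodicarboxylate carrier of lysine and tryptophan breakdown, fell in all 3 groups, with log2 fold changes of −0.74 in Cpt2PparaDKO, −0.67 in TKO and −0.63 in Cpt2KO. Slc25a1, which exports citrate for lipogenesis, and Slc25a11, the oxoglutarate/malate carrier, were called in no comparison. Slc25a1 averaged 159 ± 28.5 CPM in Cpt2PparaDKO, 152 ± 9.55 in TKO, 171 ± 13.3 in Cpt2KO, 152 ± 26 in Cpt1DKO and 163 ± 8.73 in Control. Slc25a11, which overlaps Rnf167 on the other strand, averaged 71.7 ± 14.4 CPM in Cpt2PparaDKO, 74.4 ± 11.8 in TKO, 87.4 ± 10.2 in Cpt2KO, 84.9 ± 16.9 in Cpt1DKO and 91.5 ± 4.3 in Control.

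Among the 9 tested carriers of amino acids and related compounds, falls outnumbered rises in 3 groups: 0 rose and 5 fell in Cpt2PparaDKO, 1 rose and 5 fell in TKO, and 1 rose and 6 fell in Cpt2KO. In Cpt1DKO 1 rose and 1 fell. Of all genes, 14.9% rose and 17.6% fell in Cpt2PparaDKO, and 12.9% rose and 14.4% fell in TKO. In Cpt2KO 16.2% rose and 17.2% fell, and in Cpt1DKO 2.44% rose and 3.1% fell. Slc25a13, or citrin, the aspartate/glutamate carrier of the liver that supplies aspartate for urea synthesis, had 212, 196, 188 and 104 CPM in Cpt2PparaDKO, 235, 311, 279.6 and 277 in TKO and 307, 245, 281 and 259 in Cpt2KO. It had 346, 279, 464 and 404 CPM in Cpt1DKO and 388, 400.2, 425 and 438 in Control. Libraries of the first 3 groups lay below all Control libraries. It fell in Cpt2PparaDKO (log2 fold change −1.24, SE 0.18, adjusted p = 3.51e-05), in TKO (log2 fold change −0.58, SE 0.18, adjusted p = 0.0185) and in Cpt2KO (log2 fold change −0.6, SE 0.18, adjusted p = 0.0133), and the TKO call was lost without TKO replicate 1 or without Control replicate 4 (adjusted p = 0.0543 to 0.0663). It was lower in Cpt2PparaDKO than in Cpt2KO (log2 fold change −0.64, SE 0.18, adjusted p = 0.0119), lost in a fit of only the groups compared (adjusted p = 0.0585). Slc25a12, or aralar, its counterpart in muscle and brain, averaged 30.7 ± 1.33 CPM in Cpt2PparaDKO, 28.9 ± 3.86 in TKO, 32.1 ± 2.56 in Cpt2KO, 29.9 ± 3.52 in Cpt1DKO and 28.4 ± 5.22 in Control and was called in none.

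Slc25a45, a carrier linked to the uptake of methylated amino acids, had 10.01, 10.02, 10.5 and 5.74 CPM in Cpt2PparaDKO, 6.24, 8.62, 6.71 and 9.23 in TKO and 6.67, 5.75, 9.11 and 6.97 in Cpt2KO. The values were 16.3, 11.9, 17.8 and 13.8 CPM in Cpt1DKO and 30.7, 33.2, 21.1 and 23.4 in Control. Every mutant library was below every Control library. Its log2 fold change was −1.58, SE 0.2, adjusted p = 8.85e-06 in Cpt2PparaDKO. It was −1.82, SE 0.21, adjusted p = 3.26e-06 in TKO and −1.93, SE 0.21, adjusted p = 9.69e-07 in Cpt2KO. In Cpt1DKO it was −0.86, SE 0.2, adjusted p = 0.0159, lost without Cpt1DKO replicate 2 or without Control replicate 2 (adjusted p = 0.0626 to 0.0726). Cpt2KO was lower than Cpt1DKO (log2 fold change −1.07, SE 0.21, adjusted p = 0.00184), again without overlap.

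Slc25a48, which is known to carry choline, had 15.5, 14.9, 19.3 and 5.7 CPM in Cpt2PparaDKO, 4.06, 10.9, 9.97 and 7.27 in TKO and 11.1, 7.24, 8.46 and 5.88 in Cpt2KO. It had 11, 7.05, 21.6 and 17.1 CPM in Cpt1DKO and 28.4, 29.8, 24.6 and 28.2 in Control. Every mutant library was below every Control library here too, with a wide spread within Cpt2PparaDKO and Cpt1DKO. It fell in TKO (log2 fold change −1.79, SE 0.37, adjusted p = 0.00137) and Cpt2KO (log2 fold change −1.77, SE 0.37, adjusted p = 0.00111), and in Cpt2PparaDKO (log2 fold change −1.0, SE 0.35, adjusted p = 0.0363). This last call was lost without Cpt2PparaDKO replicate 1, 2 or 4, without Control replicate 1, 2, 3 or 4, with no filter on low counts, with sex as a term or without both female-pattern libraries (adjusted p = 0.0535 to 0.117). The Cpt1DKO difference did not pass (log2 fold change −0.97, SE 0.36, adjusted p = 0.118).

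Glutamate enters by Slc25a22 and Slc25a18. Slc25a22 averaged 402 ± 71.2 CPM in Cpt2PparaDKO, 538 ± 54.5 in TKO, 506 ± 128 in Cpt2KO, 912 ± 275 in Cpt1DKO and 505 ± 129 in Control. It rose in Cpt1DKO (log2 fold change 0.85, SE 0.22, adjusted p = 0.0252) and was lower in Cpt2KO than in Cpt1DKO (log2 fold change −0.85, SE 0.22, adjusted p = 0.0132), though libraries overlapped in both. The first call was lost without Cpt1DKO replicate 1 or 2 or without Control replicate 3 or 4 (adjusted p = 0.0829 to 0.125), the second without Cpt1DKO replicate 1 (adjusted p = 0.0638). Slc25a18 had 0.987, 1.16, 1.59 and 0.698 CPM in Cpt2PparaDKO, 1.82, 2.22, 1.63 and 1.1 in TKO and 2.02, 2.18, 1.41 and 1.44 in Cpt2KO. The values were 1.12, 1.89, 1.99 and 1.13 CPM in Cpt1DKO and 0.387, 1.08, 0.831 and 0.702 in Control. TKO, Cpt2KO and Cpt1DKO libraries lay above Control and Cpt2PparaDKO overlapped it. It rose in TKO (log2 fold change 1.17, SE 0.35, adjusted p = 0.0168), lost without TKO replicate 2 or without Control replicate 1 (adjusted p = 0.054 to 0.0626), and in Cpt2KO (log2 fold change 1.24, SE 0.35, adjusted p = 0.00936). Slc25a18 overlaps Atp6v1e1 on the other strand, which averaged 119 ± 12 CPM in Cpt2PparaDKO, 145 ± 3.82 in TKO, 157 ± 32.1 in Cpt2KO, 115 ± 14.3 in Cpt1DKO and 84.2 ± 9.44 in Control. Atp6v1e1 rose in all 4 mutant groups, by a log2 fold change of 0.5 in Cpt2PparaDKO (SE 0.13, adjusted p = 0.00709), 0.78 in TKO (SE 0.13, adjusted p = 0.000195), 0.89 in Cpt2KO (SE 0.13, adjusted p = 3.3e-05) and 0.45 in Cpt1DKO (SE 0.13, adjusted p = 0.0483). Its part in the reads given to Slc25a18 was not tested. Slc25a44, which carries branched-chain amino acids, fell, with log2 fold changes of −0.42 in Cpt2PparaDKO, −0.47 in TKO and −0.64 in Cpt2KO. The glycine carrier Slc25a38, needed for haem synthesis, fell in TKO (−0.69) and Cpt2KO (−0.68). The basic amino acid carrier Slc25a29 was called lower in Cpt2PparaDKO (−0.64) and Cpt2KO (−0.71). Single libraries or settings ended some of these calls. That of Slc25a44 in Cpt2PparaDKO was lost with no filter on low counts (adjusted p = 0.0504). For Slc25a29 the Cpt2PparaDKO call was lost without Cpt2PparaDKO replicate 1 or 4, without Control replicate 2 or 4, with no filter on low counts, without both female-pattern libraries or in a fit of only the groups compared (adjusted p = 0.0624 to 0.104), and the Cpt2KO call without Control replicate 2 or 4 or in a fit of only the groups compared (adjusted p = 0.0525 to 0.0656).

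**Figure D4:**
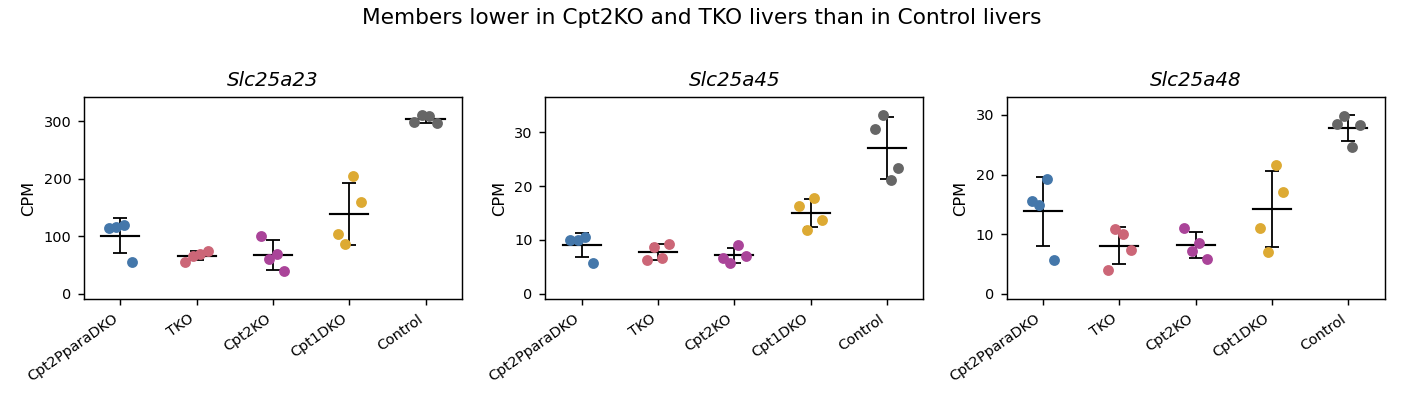
CPM of Slc25a23, Slc25a45 and Slc25a48 in every library (points), with the mean (line) and SD (bars) of the 4 libraries of each group. All mutant libraries lie below all Control libraries in each panel, and Cpt2PparaDKO replicate 4 is the lowest of its group for Slc25a23, at 54.7 CPM, and for Slc25a45, at 5.74 CPM.

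Of the 8 tested carriers of cofactors and glutathione, 0 rose and 5 fell in Cpt2PparaDKO, while 0 rose and 1 fell in TKO, 1 rose and 1 fell in Cpt2KO and 0 changed in Cpt1DKO, all against Control. The share of all genes that fell was 17.6% in Cpt2PparaDKO, 14.4% in TKO, 17.2% in Cpt2KO and 3.1% in Cpt1DKO. Slc25a16, linked to coenzyme A, fell in Cpt2PparaDKO (−0.79), TKO (−0.35) and Cpt2KO (−0.59) on the log2 scale. Its TKO call was lost without TKO replicate 1, 2 or 4, without Control replicate 1, 2, 3 or 4 or with no filter on low counts (adjusted p = 0.0585 to 0.172).

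The other 4 cofactor carriers that fell in Cpt2PparaDKO were not called in any other mutant group against Control. Slc25a42, which imports coenzyme A, had 69.5, 82.3, 80.3 and 31.6 CPM in Cpt2PparaDKO, 134, 196, 181 and 179 in TKO and 242, 179.6, 218 and 128 in Cpt2KO. It had 171, 145, 241 and 183 CPM in Cpt1DKO and 134, 156, 162 and 194 in Control. No Cpt2PparaDKO library reached any library of the other groups. The difference was −1.29, SE 0.25, adjusted p = 0.000567 against Control and −1.54, SE 0.25, adjusted p = 0.000132 against Cpt2KO.

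Slc25a51, the NAD+ importer, had 56.2, 63.9, 69.3 and 48.8 CPM in Cpt2PparaDKO, 101, 311, 251 and 126 in TKO and 137, 236, 188 and 93.4 in Cpt2KO. The values were 176, 193, 169 and 147 CPM in Cpt1DKO and 157, 182, 259 and 201 in Control. Cpt2PparaDKO was again below every other library, and the TKO libraries were widely spread. The difference was −1.74, SE 0.31, adjusted p = 0.000355 against Control and −1.46, SE 0.31, adjusted p = 0.00195 against Cpt2KO. Slc25a32, the folate and FAD carrier, had 37.3, 37.9, 41.9 and 39.4 CPM in Cpt2PparaDKO, 63.4, 102, 86.9 and 73.8 in TKO and 98.8, 84.3, 81.9 and 50.2 in Cpt2KO. It had 104, 90.1, 76.5 and 75.3 CPM in Cpt1DKO and 51.4, 50.8, 93.1 and 64.3 in Control. The 4 Cpt2PparaDKO values were close together and below all others. The difference was −0.73, SE 0.2, adjusted p = 0.00849 against Control, lost without Control replicate 3 (adjusted p = 0.0609), and −1.01, SE 0.2, adjusted p = 0.000944 against Cpt2KO.

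Slc25a26, which imports S-adenosylmethionine, was called lower in Cpt2PparaDKO against Control (−0.4) and against Cpt2KO (−0.42). The first call was lost without Cpt2PparaDKO replicate 1, 3 or 4, without Control replicate 2, 3 or 4, with no filter on low counts, with sex as a term, without both female-pattern libraries or in a fit of only the groups compared (adjusted p = 0.0701 to 0.217), the second without Cpt2KO replicate 1, 2 or 3, without Cpt2PparaDKO replicate 1, 3 or 4, with no filter on low counts, without both female-pattern libraries or in a fit of only the groups compared (adjusted p = 0.0518 to 0.159). The glutathione carrier Slc25a39 averaged 531 ± 27.7 CPM in Cpt2PparaDKO, 536 ± 15.7 in TKO, 632 ± 77.5 in Cpt2KO, 589 ± 44.4 in Cpt1DKO and 504 ± 30.5 in Control. It was called higher in Cpt2KO (0.32), lost without Cpt2KO replicate 2, without Control replicate 1 or with no filter on low counts (adjusted p = 0.0539 to 0.104). Its paralog Slc25a40 and the peroxisomal carrier Slc25a17, which handles coenzyme A, FAD and NAD, were called in no comparison with Control. Both were higher in Cpt2PparaDKO than in Cpt2KO, by 0.56 for Slc25a40, lost without Cpt2KO replicate 1, 2 or 3, without Cpt2PparaDKO replicate 1, with no filter on low counts, without both female-pattern libraries or in a fit of only the groups compared (adjusted p = 0.0545 to 0.0989), and by 0.4 for Slc25a17, lost without Cpt2KO replicate 1, 2 or 3, without Cpt2PparaDKO replicate 1 or 4, with no filter on low counts, without both female-pattern libraries or in a fit of only the groups compared (adjusted p = 0.052 to 0.264).

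The mitoferrins import iron for haem and iron-sulfur clusters, and in TKO and Cpt2KO they moved in opposite directions. Slc25a37, or mitoferrin 1, had 58.1, 53.8, 33.7 and 53.5 CPM in Cpt2PparaDKO, 36.7, 33, 41.1 and 41.7 in TKO and 43.6, 32.4, 28.5 and 28.4 in Cpt2KO. It had 24.1, 26.5, 38.4 and 34 CPM in Cpt1DKO and 63.5, 61.4, 49.3 and 66.4 in Control. TKO, Cpt2KO and Cpt1DKO libraries lay below Control, and Cpt2PparaDKO overlapped it. It fell in TKO (log2 fold change −0.66, SE 0.18, adjusted p = 0.00768), Cpt2KO (log2 fold change −0.86, SE 0.18, adjusted p = 0.000749) and Cpt1DKO (log2 fold change −0.97, SE 0.18, adjusted p = 0.00271). Cpt2PparaDKO was higher than Cpt2KO (log2 fold change 0.59, SE 0.18, adjusted p = 0.0181), lost without Cpt2KO replicate 4, without Cpt2PparaDKO replicate 1, without both female-pattern libraries or in a fit of only the groups compared (adjusted p = 0.0588 to 0.0707). Slc25a37 is abundant in erythroid cells, and 6 erythroid markers (Hba-a1, Hba-a2, Hbb-bs, Hbb-bt, Alas2 and Slc4a1) summed to 189 to 504 CPM in Cpt2PparaDKO, 176 to 423 in TKO, 163 to 547 in Cpt2KO, 184 to 325 in Cpt1DKO and 120.5 to 265 in Control, with none at 0 in any group. Of the 5 tested, 2 rose and 1 fell in Cpt2KO and 0 were called in the other groups. Of all genes, 16.2% rose and 17.2% fell in Cpt2KO. The share of all genes called was 32.5% in Cpt2PparaDKO, 27.4% in TKO and 5.55% in Cpt1DKO. Each globin of the list averaged higher in every mutant group than in Control. Alas2 ran over 9.23 to 48.7 CPM in Cpt2PparaDKO, 21.3 to 35.5 in TKO and 7.87 to 33.5 in Cpt2KO. It ran over 18.2 to 39.8 CPM in Cpt1DKO and 44.7 to 63.5 in Control. The part of blood in these libraries was not tested. Slc25a28, or mitoferrin 2, the widespread form, rose in Cpt2PparaDKO (0.37), TKO (0.73) and Cpt2KO (0.86) on the log2 scale, and its Cpt2PparaDKO call was lost without Cpt2PparaDKO replicate 4, without Control replicate 1, 3 or 4, with sex as a term or without both female-pattern libraries (adjusted p = 0.0596 to 0.0945). It was higher in Cpt2KO than in Cpt1DKO (log2 fold change 0.64, SE 0.13, adjusted p = 0.00357) and lower in Cpt2PparaDKO than in Cpt2KO (log2 fold change −0.49, SE 0.13, adjusted p = 0.0104), lost in a fit of only the groups compared (adjusted p = 0.0558).

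Among the remaining 5 tested members, Slc25a47 was the most abundant. It had 675, 683, 648 and 314 CPM in Cpt2PparaDKO, 1342, 1958, 1701 and 1359 in TKO and 1628, 2383, 1184 and 1846 in Cpt2KO. The values were 1648, 1675, 1161 and 1364 CPM in Cpt1DKO and 723, 733, 919 and 880.1 in Control. TKO, Cpt2KO and Cpt1DKO libraries lay above all Control libraries, and Cpt2PparaDKO libraries lay below them. It rose in TKO (log2 fold change 0.97, SE 0.23, adjusted p = 0.00331), Cpt2KO (log2 fold change 1.11, SE 0.23, adjusted p = 0.000791) and Cpt1DKO (log2 fold change 0.85, SE 0.23, adjusted p = 0.033), the last being lost without Cpt1DKO replicate 1, 2 or 4 or without Control replicate 1, 2, 3 or 4 (adjusted p = 0.0505 to 0.11). Cpt2PparaDKO was lower than Cpt2KO (log2 fold change −1.6, SE 0.23, adjusted p = 3.06e-05), and its difference from Control did not pass (log2 fold change −0.49, SE 0.23, adjusted p = 0.106).

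Slc25a34 and Slc25a35 are orphan carriers that resemble each other. Slc25a34 had 5.1, 7.13, 8.59 and 3.61 CPM in Cpt2PparaDKO, 13.6, 28.1, 30.2 and 19.9 in TKO and 25.3, 27.8, 35 and 14.7 in Cpt2KO. It had 20.1, 24.4, 32.2 and 24.7 CPM in Cpt1DKO and 15.3, 16.1, 25.9 and 21 in Control. Every Cpt2PparaDKO library was below every other library. It was lower in Cpt2PparaDKO than in Control (log2 fold change −1.69, SE 0.3, adjusted p = 0.000349) and than in Cpt2KO (log2 fold change −2.08, SE 0.3, adjusted p = 5.36e-05). Slc25a35 had 0.846, 1.56, 0.56 and 0.504 CPM in Cpt2PparaDKO, 0.424, 0.404, 0.0932 and 1.01 in TKO and 0.202, 0.213, 0.325 and 0.173 in Cpt2KO. It had 0.661, 0.261, 0.638 and 0.901 CPM in Cpt1DKO and 1.55, 1.48, 0.97 and 1.4 in Control. These levels rest on 3, 4, 6 and 3 counts in Cpt2KO and 28, 22, 14 and 24 counts in Control. It fell in TKO (log2 fold change −1.46, SE 0.5, adjusted p = 0.0322) and in Cpt2KO (log2 fold change −2.53, SE 0.55, adjusted p = 0.00121). The TKO call was lost without TKO replicate 1, 2 or 3, without Control replicate 1, 2 or 4 or with no filter on low counts (adjusted p = 0.0527 to 0.0956), and the log2 fold change was −2.14 without TKO replicate 4. Cpt2PparaDKO was higher than Cpt2KO (log2 fold change 1.88, SE 0.55, adjusted p = 0.0154), lost without Cpt2PparaDKO replicate 2 (adjusted p = 0.0673). Slc25a46, an outer-membrane member that takes part in mitochondrial fission, was lower in Cpt2PparaDKO than in Cpt2KO (log2 fold change −0.66, SE 0.12, adjusted p = 0.000376). Its calls against Control, −0.32 in Cpt2PparaDKO, 0.32 in TKO and 0.34 in Cpt2KO, were small. The Cpt2PparaDKO call was lost without Cpt2PparaDKO replicate 1, 2, 3 or 4, without Control replicate 1, 2, 3 or 4, with RLE scaling, with no filter on low counts, with sex as a term, without both female-pattern libraries, in a fit of only the groups compared or with DESeq2 (adjusted p = 0.0534 to 0.225), the TKO call without TKO replicate 2 or 3, without Control replicate 1, 2, 3 or 4 or with no filter on low counts (adjusted p = 0.0606 to 0.168) and the Cpt2KO call without Cpt2KO replicate 3 or 4, without Control replicate 2, 3 or 4 or with no filter on low counts (adjusted p = 0.0519 to 0.107). Slc25a53 averaged 1.92 ± 0.125 CPM in Cpt2PparaDKO, 1.97 ± 0.222 in TKO, 1.95 ± 0.436 in Cpt2KO, 2.18 ± 0.786 in Cpt1DKO and 2.56 ± 0.792 in Control and was called in no comparison.

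Set directly against Cpt2KO, which shares the loss of Cpt2, Cpt2PparaDKO had 5 members higher and 15 lower, 48.8% of those tested beside 24.4% of all genes (12.1% higher and 12.2% lower). The members with the largest falls were Ucp3, Slc25a34, Slc25a47, Slc25a42, Slc25a51, Ucp2, Slc25a30 and Slc25a32. Of the 12 members that were higher in Cpt2KO than in Control, 7 were lower in Cpt2PparaDKO than in Cpt2KO: Slc25a3, Ucp2, Ucp3, Slc25a30, Slc25a28, Slc25a46 and Slc25a47. The other 5, Slc25a4, Slc25a24, Slc25a27, Slc25a18 and Slc25a39, were not called between them. Of the 12 that were lower in Cpt2KO than in Control, 2 were higher in Cpt2PparaDKO than in Cpt2KO (Slc25a37 and Slc25a35), 2 were lower still (Slc25a10 and Slc25a13) and 8 were not called, Slc25a23, Slc25a45 and Slc25a48 among them. Cpt2KO enters both comparisons, so these counts describe the values and are no independent support of each other. How many of all genes follow the same patterns was not counted, so the patterns cannot be called particular to the carriers. In a fit of only those groups 13 of the 41 were called, while 19 were called without both female-pattern libraries and 22 without Cpt2PparaDKO replicate 4. The share of all genes called was 16.9%, 26.1% and 25.6% in those fits.

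**Figure D5:**
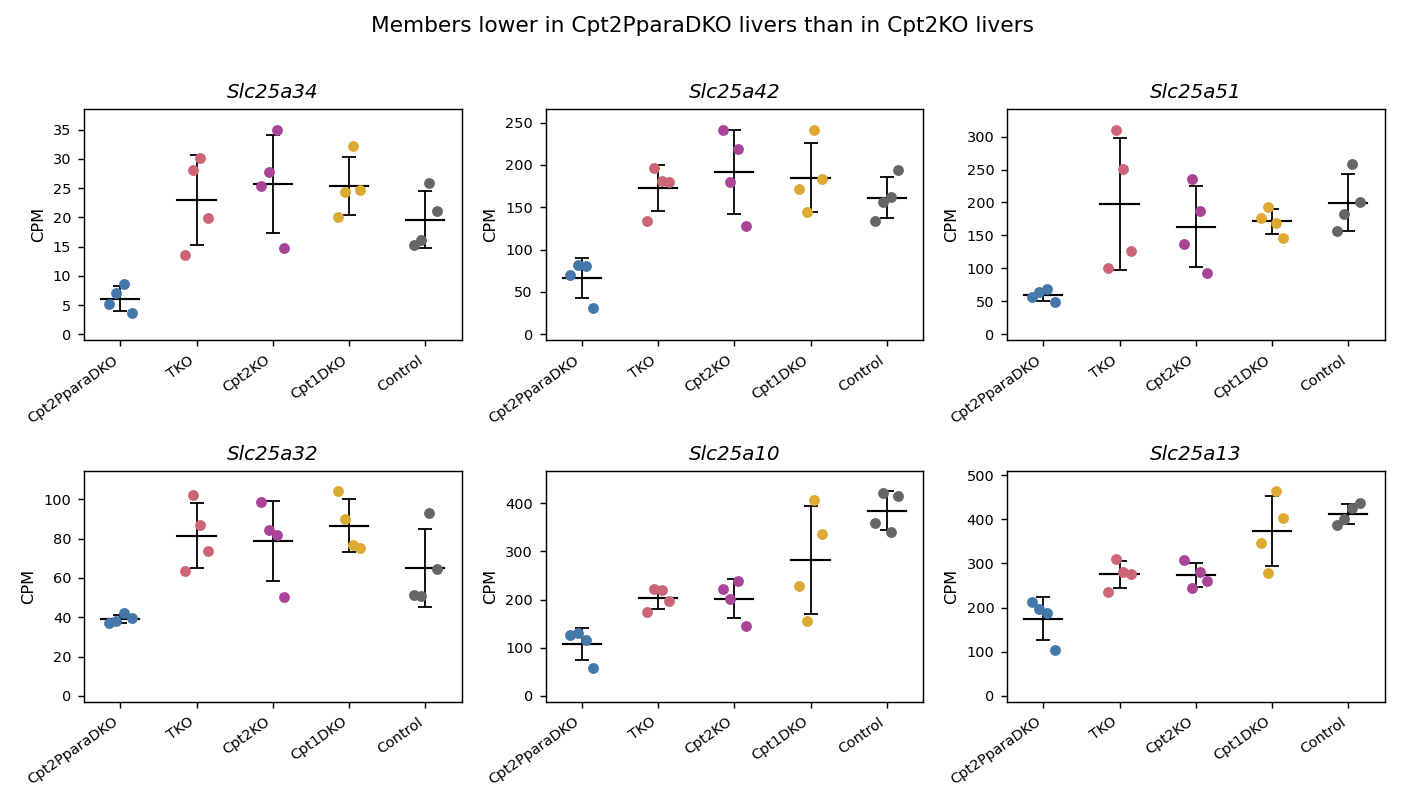
CPM of Slc25a34, Slc25a42, Slc25a51, Slc25a32, Slc25a10 and Slc25a13 in every library (points), with the mean (line) and SD (bars) of the 4 libraries of each group. Cpt2PparaDKO libraries lie below all Cpt2KO libraries and all Control libraries in each panel. Slc25a34 averages 6.11 CPM in Cpt2PparaDKO against 25.7 CPM in Cpt2KO.

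TKO against Cpt2KO asks what the added loss of Cpt1a and Cpt1b changes. edgeR called 0 members, beside 0.0511% of all genes (0.0319% higher and 0.0191% lower). At an unadjusted p under 0.05 there were 4, and DESeq2 called 0, with 5 at an unadjusted p under 0.05. The members' log2 fold changes lay between −0.57 (Slc25a4) and 1.06 (Slc25a35, SE 0.58), with −0.12 for Ucp3 (SE 0.39), −0.15 for Ucp2 (SE 0.23) and −0.15 for Slc25a47 (SE 0.23). The libraries did not overlap for 1 of the 41 tested members, beside 4.79% of all genes: those of Slc25a39 were lower in TKO (log2 fold change −0.24, SE 0.11, adjusted p = 0.455), which did not pass the test.

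Cpt2KO against Cpt1DKO, a late against an early block of the same shuttle, gave 4 members higher and 5 lower, 22% of those tested beside 14.1% of all genes (7.42% higher and 6.71% lower). Higher were Ucp3, Slc25a30, Slc25a28 and Slc25a3, and lower were Slc25a45, Slc25a23, Slc25a22, Slc25a44 and Slc25a16. Slc25a44, with −0.47, SE 0.11, adjusted p = 0.00616, and Slc25a16, with −0.43, SE 0.12, adjusted p = 0.0262, are those not yet given, and the call of Slc25a16 was lost without Cpt1DKO replicate 3 or 4, without Cpt2KO replicate 1 or 2, with no filter on low counts or in a fit of only the groups compared (adjusted p = 0.054 to 0.106). In a fit of only those groups 6 members and 9.47% of all genes were called.

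Whether the loss of Cpt2 acts the same with and without Cpt1a and Cpt1b was tested as an interaction, the difference between TKO and Cpt1DKO minus that between Cpt2KO and Control. It was called for 1 member, with a positive value, 2.44% of those tested beside 2.7% of all genes (1.42% positive and 1.28% negative). For Slc25a37 the interaction was 1.17, SE 0.25, adjusted p = 0.0147 on the log2 scale. All Cpt2KO libraries lay below all Control libraries, while TKO and Cpt1DKO overlapped. Its mean was 38.1 ± 4.08 CPM in TKO, 30.8 ± 6.61 in Cpt1DKO, 33.2 ± 7.13 in Cpt2KO and 60.1 ± 7.54 in Control (SD, n = 4 each). No alternative run, leaving out each library included, ended that call (adjusted p = 0.00118 to 0.0419). The count of members called was 2 with sex as a term, 3 without both female-pattern libraries, 4 in a fit of only those groups and 7 with DESeq2, beside 2.82%, 6.15%, 3.98% and 6.21% of all genes. It was also 2 without Cpt1DKO replicate 3, without Cpt2KO replicate 1 or 3 or without Control replicate 4.

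Other genes of carrier import and of the inner membrane, not members, were counted from fixed lists. Of 13 genes of the import route for carriers, built around TIM22, 1 rose and 3 fell in Cpt2PparaDKO, 2 rose and 0 fell in TKO, 4 rose and 1 fell in Cpt2KO and 0 changed in Cpt1DKO, against Control. The share of all genes called was 32.5% in Cpt2PparaDKO, 27.4% in TKO, 33.4% in Cpt2KO and 5.55% in Cpt1DKO. In Cpt2PparaDKO against Cpt2KO 0 rose and 6 fell, led by Timm9, an import chaperone of the intermembrane space (−1.08, SE 0.13, adjusted p = 3.78e-06), with a list median of −0.36 beside 0.0111 for all genes. Of all genes, 12.1% rose and 12.2% fell in that comparison. Of 7 other inner-membrane carriers, 6 were tested, and 1 rose and 4 fell in Cpt2PparaDKO, 1 rose and 3 fell in TKO, 1 rose and 3 fell in Cpt2KO and 0 changed in Cpt1DKO. These counts against Control stand beside the same shares of all genes. Mpc1 and Mpc2 form the mitochondrial pyruvate carrier. Mpc1 rose in TKO (0.62, SE 0.16, adjusted p = 0.00697) and Cpt2KO (1.11, SE 0.16, adjusted p = 2.63e-05), and it was lower in Cpt2PparaDKO than in Cpt2KO (−0.90, SE 0.16, adjusted p = 0.000317). Mpc2 fell in Cpt2PparaDKO against Control (−1.09, SE 0.14, adjusted p = 1.01e-05). The serine carrier Sfxn1 fell in Cpt2PparaDKO (−1.36, SE 0.17, adjusted p = 6.88e-06), TKO (−0.53, SE 0.17, adjusted p = 0.022) and Cpt2KO (−0.44, SE 0.17, adjusted p = 0.0485). Mtch1 and Mtch2, outer-membrane proteins of the same fold, both fell in Cpt2PparaDKO against Control, with log2 fold changes of −0.34 and −0.43.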

How the data were processed

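RNA was extracted from flash-frozen liver, per the labels' protocols, and HISAT2 with GRCm39/mm39 is named in the submitters' processing notes. How reads were counted, with or without strand, and on which annotation release is not stated there. The authors deposited a table of raw read counts per gene for 20 libraries and, beside it, FPKM values. FPKM scales counts by gene length and a measure of depth, which here did not follow the totals of the deposited counts alone. Here the counts were tested with edgeR 4.0.16 in R 4.3.3: filterByExpr with a minimum count of 10, TMM scaling, and 1 quasi-likelihood fit of all 20 libraries with a mean per group (common biological coefficient of variation 0.233), adjusted by Benjamini-Hochberg over 15669 genes. Standard errors were taken from the log2 fold change and its F statistic (fold change over root F). CPM uses TMM-scaled totals. FPKM was used only to set levels of genes side by side. Total counts of 14129595 to 36452673 mean that 3 counts, the limit a count of 0 allows, correspond to 0.0705 to 0.239 CPM, for counting error only.

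Values in every library are given for members called against Control with an absolute log2 fold change of at least 1 and 1 CPM in a group, for members with such a change in Cpt2PparaDKO against Cpt2KO or in the interaction, and for Ucp1, Ucp2, Ucp3, Slc25a3, Slc25a4, Slc25a5 and Slc25a47. The members, the lists of other genes and this rule were chosen with earlier results of these data known. Alternatives were RLE scaling, no filter on low counts, a replicate block, sex as a term, leaving out both female-pattern libraries, a fit of only the groups compared, DESeq2 1.42.0, and leaving out each library in turn. No libraries of a group agreed within sampling noise (chi-square per degree of freedom at least 11.5). The scripts were tested on simulated counts. Slc25a15, Slc25a20, 1 other gene of the same name pattern and 1 erythroid marker are not reported here and enter no count of members or markers.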

Additional observations from a re-analysis of the deposited data

Results flagged for a closer look

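Of 105 sets of 4 libraries (a member given library by library, in a group), 5 held a value outside the other 3 by Dixon's criterion at the 95% level, where chance gives about 1 in 20. The sets of Ucp1, with 0 counts in every library, are among the 105 and could not be flagged. A total of counts stood apart by the same criterion: Cpt2PparaDKO replicate 1 had a total of 36452673 counts, against 17926295 to 19964385 in the other 3 libraries of its group. Cpt2PparaDKO replicate 4, a library with the Xist level of a female, was low for 3 members: Slc25a23 at 54.7 CPM, against 115 to 119 in the other 3, Slc25a45 at 5.74 CPM, against 10.01 to 10.5, and Slc25a47 at 314 CPM, against 648 to 683. In TKO, replicate 1 was high for Slc25a24, at 8.17 CPM against 3.37 to 3.91 in the other 3. Slc25a30 in Cpt2KO replicate 3, the other library with the Xist level of a female, was at 165 CPM, against 118 to 123 in the other 3.

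The effect of losing Cpt2 differed with the presence of Cpt1a and Cpt1b for 1 member in edgeR's interaction test. The difference between both effects was 1.17 on the log2 scale for Slc25a37 (SE 0.25, adjusted p = 0.0147).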

How the results depend on the processing

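Of 101 called results of single members, 63 kept call and direction in every alternative run, 38 lost the call in at least 1, and 0 reversed. Of 56 counts of members called under alternatives other than leaving out a library, 50 were within 1.5 times the main count. The exceptions were the interaction, with 1 member called, against 2 with sex as a term, 3 without both female-pattern libraries, 4 in a fit of only the groups compared and 7 with DESeq2, Cpt2PparaDKO against Control, with 20, against 13 without both female-pattern libraries, and Cpt2PparaDKO against Cpt2KO, with 20, against 13 in a fit of only those groups. The cause was not tested. The share of all genes called also differed between these fits: in the interaction it was 2.82%, 6.15%, 3.98% and 6.21% in that order, against 2.7%. Leaving out each library in turn gave 13 to 20 calls in Cpt2PparaDKO against Control, 16 to 20 in TKO against Control, 21 to 24 in Cpt2KO against Control, 1 to 7 in Cpt1DKO against Control, 16 to 22 in Cpt2PparaDKO against Cpt2KO, 6 to 10 in Cpt2KO against Cpt1DKO, 0 in each fit of TKO against Cpt2KO and 1 to 2 in the interaction.

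Slc25a51 in TKO against Control, −0.02 and not called, changed sign to 0.027 without the filter on low counts, 0.0094 in a fit of only those groups, and 0.2005, 0.1774, 0.1507 and 0.005 without TKO replicate 1, TKO replicate 4, Control replicate 3 and Control replicate 4, within a range of −0.3229 to 0.2005 over single libraries left out.

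Calls were also gained. Ucp2 in Cpt1DKO against Control, 0.71 (adjusted p = 0.0718), passed the test with sex as a term, without both female-pattern libraries, in a fit of only those groups, without Cpt1DKO replicate 3 and with DESeq2 (adjusted p = 0.0189 to 0.0315). Slc25a30 passed in Cpt2PparaDKO against Control with no filter on low counts, without Cpt2PparaDKO replicate 3 and without Control replicate 4 (adjusted p = 0.0114 to 0.0466), Slc25a3 in TKO against Control in a fit of only those groups and with DESeq2 (adjusted p = 0.0281 and 0.0459), and Slc25a32 in TKO and Cpt2KO against Control without Control replicate 3 (adjusted p = 0.0351 and 0.0438).

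Replicate numbers are shared between groups, but nothing in the labels says that they pair samples: over 28 pairs the correlation of deviations was −0.153 to 0.233, and in 8 of the 28 the first library correlated best with the one of its own number. With the replicate number as a block, members called were 19 in Cpt2PparaDKO against Control, 19 in TKO, 24 in Cpt2KO, 6 in Cpt1DKO, 19 in Cpt2PparaDKO against Cpt2KO, 9 in Cpt2KO against Cpt1DKO, 0 in TKO against Cpt2KO and 1 in the interaction. The block ended 6 calls of single members: Slc25a4 (adjusted p = 0.0587) and Slc25a26 (adjusted p = 0.0585) in Cpt2PparaDKO against Control, Slc25a46 in TKO against Control (adjusted p = 0.0616), Ucp3 in Cpt1DKO against Control (adjusted p = 0.064), Slc25a26 in Cpt2PparaDKO against Cpt2KO (adjusted p = 0.0516) and Slc25a3 in Cpt2KO against Cpt1DKO (adjusted p = 0.0531). With 4 libraries a group, depth limits the members of a few reads, Ucp3 in Control and Slc25a35 above all.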
